A study of Mus musculus with 6 samples.

Results

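Apol8 and Apol11b, a pair of apolipoprotein L genes of the mouse, were followed through 6 arrays of tibial articular cartilage and subchondral bone. They were picked from the falls between Frzb-/- and wild-type mice, so the size of that fall is given as a description and was not tested. They are 2 of the 13817 genes with a probe set of their own, and they are read by 3 of the 30618 probe sets: 1 for Apol8 (1441054_at) and 2 for Apol11b (1440927_x_at and 1457307_at). Frzb encodes a secreted frizzled-related protein, which binds WNT ligands outside the cell. The arrays compared Frzb-/- mice, titled 14 and 17, with wild-type mice, titled 6-1, 8-1 and 9-1, and array 6 is given as a group of its own. Its labels also name Frzb -/- as the genotype. However, the paper reports that a mouse presumed to be Frzb-/- clustered with the wild-type mice and was found heterozygous on re-genotyping. That mouse was left out of the published comparison, without its number being given. An earlier match of the published fold changes to the array means pointed to array 6 as the one left out. All mice were C57Bl/6J males of 6 weeks of age, the Frzb-/- mice had been back-crossed to this strain, and each array held the tissue of 1 mouse. The tissue was cut out in 1 piece and contained cartilage, trabecular bone with its marrow, and a part of the growth plate.

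Apolipoproteins L carry the name of a lipoprotein component but differ from the carriers of plasma lipid such as apolipoprotein E. Human APOL1 is secreted into serum and lyses trypanosomes, whereas most other family members lack a signal for secretion and stay inside the cell. In the human, several APOL genes are induced by interferon, and in the mouse the family has expanded into a cluster of closely related genes. RefSeq lists 15 mouse genes with Apol symbols, of which 13 are protein-coding and 13 lie on chromosome 15. On that chromosome 6 genes lie between Apol11b and Apol8, among them Apol7e and Apol9b.

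The windows around both start sites are shown because the genes lie in the same cluster. Both were picked for being low on the same arrays. Each holds 250 bases before the RefSeq start of the gene and 50 from it, on the minus strand, 5′ to 3′. They come from RefSeq on GRCm38.p6, at chr15:77756961-77757260 for Apol8 and chr15:77643237-77643536 for Apol11b. Capitals mark matches, on either strand, to any of 8 short motifs of blood, WNT and interferon transcription factors.
Apol8: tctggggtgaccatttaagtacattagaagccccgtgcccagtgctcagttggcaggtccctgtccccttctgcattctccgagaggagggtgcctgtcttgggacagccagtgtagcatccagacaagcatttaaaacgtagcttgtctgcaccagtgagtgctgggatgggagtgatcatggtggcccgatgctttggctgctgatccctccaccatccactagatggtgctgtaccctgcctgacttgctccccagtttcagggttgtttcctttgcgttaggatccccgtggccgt
Apol11b: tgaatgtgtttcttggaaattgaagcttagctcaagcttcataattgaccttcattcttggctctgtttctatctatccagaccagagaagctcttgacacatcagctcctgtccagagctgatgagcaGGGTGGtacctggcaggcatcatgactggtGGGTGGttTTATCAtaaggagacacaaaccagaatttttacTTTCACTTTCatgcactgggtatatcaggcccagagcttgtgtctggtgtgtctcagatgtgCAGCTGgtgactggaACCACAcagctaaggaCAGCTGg
The Apol8 window had a GC content of 55.7% and the Apol11b window 46.7%, against a median of 52.7% over the 32817 windows of all genes. The motifs searched were AGATAA and TGATAA for GATA factors, TTGCNNAA for C/EBP, AGGAAG for ETS, TGTGGT for RUNX, CCACCC for KLF, CAGCTG for E-box proteins, ATCAAAG for TCF/LEF factors of the WNT pathway, and an interferon-response-like element made of TTTC, any 2 bases and TTTC. The Apol11b window held 2 KLF matches, 2 E-box matches and 1 match each for GATA, RUNX and the interferon-response-like element, none of which overlapped another. The Apol8 window held 0 matches to all 8. Among all windows the KLF motif was present in 31.5%, the E-box in 16.3%, GATA in 18.6%, RUNX in 16.8%, the interferon-response-like element in 3.43%, ETS in 35.4%, C/EBP in 10.8% and TCF/LEF in 3.73%. These matches describe letters and not bound sites.

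The deleted gene was looked at first. Its brighter probe set (1416658_at) read 7.02 and 6.42 on the Frzb-/- arrays 14 and 17, 6.93 on array 6, and 10.02, 10.79 and 10.16 on the wild-type arrays. The other Frzb probe set (1448424_at) read 5.22 and 4.92 in Frzb-/- mice, 5.34 on array 6, and 8.12, 8.96 and 8.08 in wild-type mice. All values are RMA expression values on the log2 scale, so that a difference of 1 is a doubling. For Frzb, array 6 therefore lay with the arrays 14 and 17 and apart from all wild-type arrays. Over all probe sets, in contrast, array 6 correlated more closely with the wild-type arrays (Pearson's r 0.983 to 0.991) than with the Frzb-/- arrays (0.940 to 0.957). The Frzb-/- arrays correlated with each other at 0.988 and with the wild-type arrays at 0.938 to 0.967, and the wild-type arrays among themselves at 0.987 to 0.993. A probe set was called in limma when its p, adjusted after Benjamini and Hochberg, was under 0.01 and its log2 difference exceeded 1 in size. By this rule 1558 probe sets were lower (5.09% of those tested) and 717 higher in Frzb-/- than in wild-type mice. Without array 17 the counts were 335 and 97, without the wild-type array 8-1 they were 676 and 298, and without array 14 the count of higher probe sets was 355.

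Apol8 read 6.48 and 5.05 in Frzb-/- mice, 8.79 on array 6, and 9.22, 8.79 and 9.32 in wild-type mice. Its mean was 5.76 ± 1.02 in Frzb-/- (SD, n = 2) and 9.11 ± 0.29 in wild-type mice (SD, n = 3), a log2 difference of -3.35 with a standard error of 0.40, or 10.2-fold lower. Both Frzb-/- arrays were below all wild-type arrays, and the gap between the groups was 2.30. The Frzb-/- arrays were unlike each other, with array 14 at -2.63 and array 17 at -4.06 from the wild-type mean, a distance of 1.44. Of the 1558 probe sets called lower, 84.2% had array 17 below array 14, and the median distance was 0.36. A distance at least as large as that of Apol8 was found in 11 (0.706%), a count that includes Apol8. That call itself favours probe sets whose replicates lie close together.

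Apol11b read 5.53 and 5.06 in Frzb-/- mice, 8.04 on array 6, and 9.02, 8.97 and 9.34 in wild-type mice at the probe set 1440927_x_at. At the probe set 1457307_at it read 4.80 and 4.83 in Frzb-/- mice, 8.02 on array 6, and 8.81, 8.88 and 9.21 in wild-type mice. At both, the groups were separated by a gap, of 3.44 and 3.98, and array 6 lay between them. The mean was 5.29 ± 0.33 in Frzb-/- (SD, n = 2) and 9.11 ± 0.20 in wild-type mice (SD, n = 3) at the first, a log2 difference of -3.82 (standard error 0.19, 14.1-fold lower). At the second it was 4.82 ± 0.02 in Frzb-/- and 8.97 ± 0.21 in wild-type mice, a log2 difference of -4.15 (standard error 0.15, 17.8-fold lower). The Frzb-/- arrays 14 and 17 lay at -3.58 and -4.05 from the wild-type mean at the first probe set and at -4.17 and -4.14 at the second, so the distance between them was 0.47 at the first and -0.03 at the second. The probe sets derive from the same transcript accession and are not independent measurements, and probe sets with the ending _x_at may hold probes that also match related sequences. In a bulk sample of this kind, fewer cells of a type and less RNA per cell cannot be told apart.

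Ranked by the size of the fall among all probe sets, Apol11b held the places 3 and 4 and Apol8 the place 10. The choice of the genes used these values. Next to them stood Igkv15-103, an immunoglobulin light chain segment, at place 2 with -4.24, Prg2, the major basic protein of eosinophils, at place 5 with -3.65, Slfn1, a Schlafen family gene, at place 9 with -3.39, and Car1, a red cell carbonic anhydrase, at place 11 with -3.34.

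**Figure D1:**
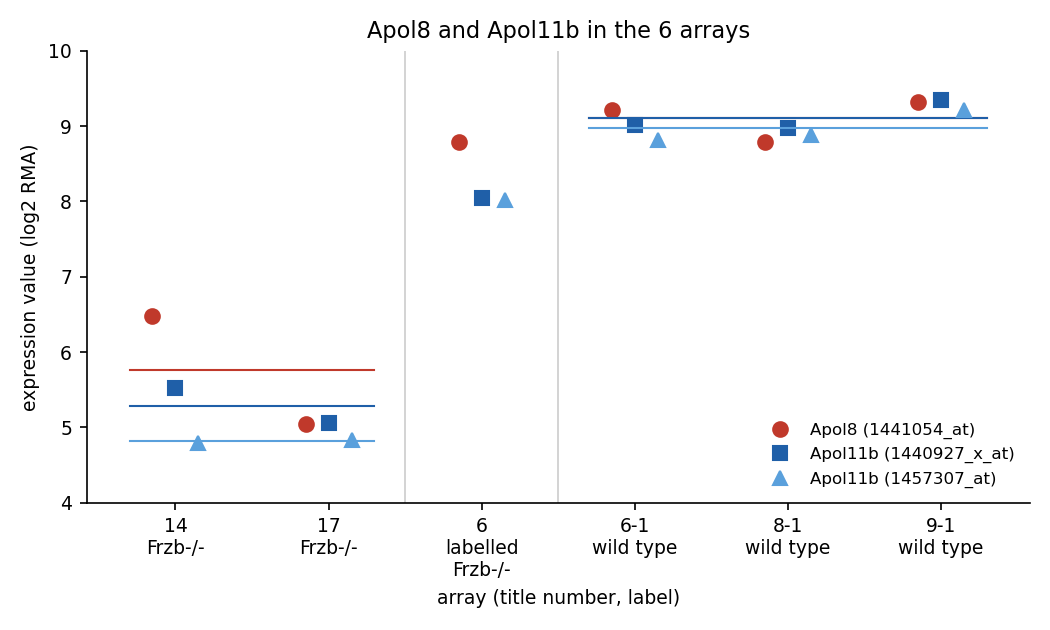
Expression value (log2 RMA) of the 3 probe sets of Apol8 and Apol11b on each array, with horizontal lines at the mean of the 2 Frzb-/- and of the 3 wild-type arrays (the lines of Apol8 and of the first Apol11b probe set coincide in wild-type at 9.11). Arrays 14 and 17 lie between 4.80 and 6.48 and the wild-type arrays between 8.79 and 9.34, and on array 6 Apol8 lies within the wild-type range and Apol11b below it.

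Array 6 had not been used in the choice of the genes, and the difference between Apol8 and Apol11b on it was not tested. Apol8 on array 6 differed from the wild-type mean by -0.32 (95% interval -1.50 to 0.87, limma, adjusted p = 0.942), and its value of 8.79 lay at the lowest wild-type value. Apol11b was lower than all wild-type arrays at both probe sets, by -1.07 (95% interval -1.63 to -0.51, unadjusted p = 0.00285) and by -0.95 (-1.40 to -0.49, unadjusted p = 0.00172), but neither passed after adjustment over all probe sets in limma (adjusted p = 0.678 and 0.616). The difference on array 6 was 28% of that in Frzb-/- mice at the first Apol11b probe set, 22.8% at the second and 9.45% at Apol8. As this group is 1 array, its spread was taken from the other groups, and it was set against the same wild-type arrays as the Frzb-/- mice. By the same limits 0 of the 30618 probe sets (0%) were lower on array 6, although limma gave 2197 probe sets an unadjusted p under 0.05 and the smallest adjusted p was 0.0155.

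Most probe sets that were lower in Frzb-/- mice were not low on array 6. Over the 1558 of them, the median difference of array 6 from wild type was 0.09, and 182 (11.7%) lay below all wild-type arrays on array 6. A difference on array 6 at least as negative as that of the less changed Apol11b probe set was found in 18 of them (1.16%). The 18 include both Apol11b probe sets and both probe sets of Frzb itself. Measured as distances from the wild-type mean, Apol8 exceeded Apol11b (1440927_x_at) by 0.96 on array 14 and by 0.75 on array 6, and differed from it by -0.01 on array 17 and by between -0.18 and 0.20 on the wild-type arrays.

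Of the other Apol genes 2 had a probe set of their own, and 0 passed in limma between Frzb-/- and wild-type mice, also at an unadjusted p under 0.05. Apol6, whose human counterpart acts inside the cell, read 8.35 and 8.23 in Frzb-/- mice, 7.05 on array 6, and 8.12, 7.96 and 7.50 in wild-type mice, a log2 difference of 0.43 (95% interval -0.03 to 0.89, limma, adjusted p = 0.149). On array 6 it differed from wild type by -0.81 (95% interval -1.39 to -0.23, adjusted p = 0.678), so that among the arrays its lowest value was that of array 6 and its highest those of the Frzb-/- mice. Apold1, an endothelial early response gene that contains an apolipoprotein L domain, read 7.95 and 7.62 in Frzb-/- mice, 7.54 on array 6, and 7.86, 7.57 and 7.70 in wild-type mice (difference 0.08, 95% interval -0.29 to 0.44, adjusted p = 0.747). A further 2 probe sets are shared by several genes, and their values cannot be given to 1 of them. The one of Apol7c and Gm8221 read 3.74 and 3.88 in Frzb-/- mice, 3.82 on array 6, and 3.53, 3.62 and 3.75 in wild-type mice (adjusted p = 0.351). The one of Apol7e and Apol7b read 3.88 and 3.88 in Frzb-/- mice, 4.14 on array 6, and 3.86, 3.81 and 4.10 in wild-type mice (adjusted p = 0.83). The remaining listed family genes, Apol9a and Apol9b among them, had no probe set of their own in the table.

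The genes around the cluster were then examined, taking 10 measured genes on each side of the Apol genes and the 2 that lie among them, Apol6 and Rbfox2. Of these 22 genes 1 was lower and 0 were higher in Frzb-/- mice, against 6.02% lower and 3.03% higher among all genes, and their median difference was -0.01. The one was Ncf4, a subunit of the phagocyte NADPH oxidase, which read 8.34 and 7.70 in Frzb-/- mice, 9.67 on array 6, and 9.58, 10.03 and 9.85 in wild-type mice (difference -1.80, limma, adjusted p = 0.00236). Its adjusted p was 0.0142 without array 17 and 0.0128 without the wild-type array 8-1, and then 0 of the 22 genes passed, whereas without the wild-type array 6-1 there were 2. Myh9, a non-muscle myosin heavy chain, follows Apol8 with no RefSeq gene between them, and read 12.03 and 12.00 in Frzb-/- mice, 12.32 on array 6, and 12.20, 12.43 and 12.29 in wild-type mice (difference -0.29, adjusted p = 0.133). Foxred2, a flavoprotein of the endoplasmic reticulum, and Recql4, a DNA helicase, had adjusted p-values of 0.00524 and 0.00814 with differences of -0.96 and -0.83, which are short of the limit on size. Csf2rb, the common beta chain of cytokine receptors, differed by -0.85 (adjusted p = 0.014). On array 6, Mb and Pvalb, which encode the muscle proteins myoglobin and parvalbumin, were at -1.26 and -1.02 from wild type, without passing (adjusted p = 0.691 and 0.678).

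**Figure D2:**
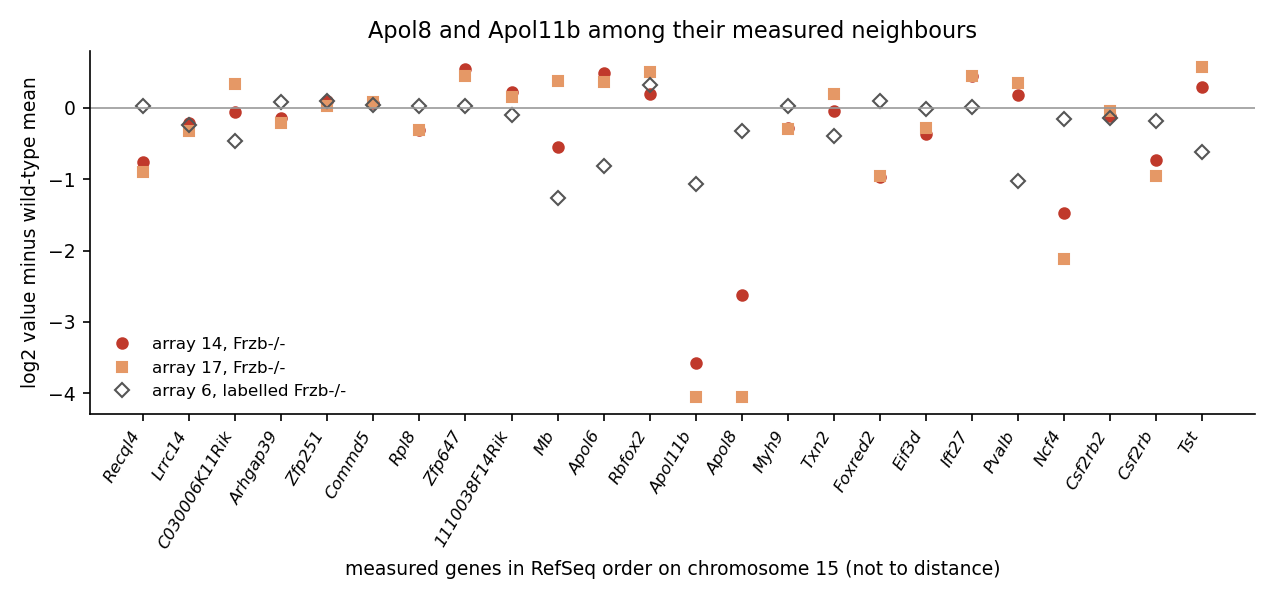
Log2 value minus the wild-type mean for Apol11b (1440927_x_at), Apol8 and the 22 measured genes around them, in RefSeq order on chromosome 15 and without regard to distance, with 1 marker per array. Apol11b, Apol8 and, to a lesser degree, Ncf4 fall below the band of the other genes on arrays 14 and 17.

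The genes whose pattern was most like that of each Apol gene were taken by the smallest root mean square difference over the 6 arrays, after the wild-type mean of each gene had been subtracted. With so few arrays, 2 of them low, this is a description of likeness and was not tested. For Apol8 the nearest were Gp5 (0.29), a platelet glycoprotein, Slc14a1 (0.32), a urea transporter that carries a blood group in the human, Nfe2 (0.33), a transcription factor of megakaryocytes and red cell precursors, Jchain (0.33), the joining chain of secreted immunoglobulins, and Slc38a5 (0.33), an amino acid transporter. Tspan33 (0.34), Kel (0.34), which carries the Kell blood group in the human, 5430401H09Rik (0.34), Nxpe2 (0.36) and Hemgn (0.36), a nuclear protein of blood cell precursors, followed. On array 6 these 10 genes lay between -0.07 and 0.20 from their wild-type means. Their distance between arrays 14 and 17 was between 0.39 (Nxpe2) and 1.67 (Gp5), with 1.60 for Kel.

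For Apol11b the nearest were Cd5l (0.30), a protein secreted by macrophages, Slfn1 (0.42), Olfm4 (0.48), a granule protein of a subset of neutrophils, Igkv15-103 (0.52), Mmp8 (0.55), the neutrophil collagenase, and Cd177 (0.55), a neutrophil surface protein. Ifitm6 (0.58), an interferon-induced transmembrane gene, Nxpe2 (0.60), Abca13 (0.60), a membrane transporter, and Mylk3 (0.61), a myosin light chain kinase, followed. The genes with the closest match on array 6 were Igkv15-103, Cd5l and Olfm4, at -0.97, -0.90 and -0.84 from their wild-type means, against -1.07 for Apol11b. Slfn1 was at -0.51, and the other 6 genes were between -0.27 and 0.05. However, on the wild-type array 6-1 these genes were also low, with Igkv15-103 at -0.92, Olfm4 at -0.66, Slfn1 at -0.50 and Cd5l at -0.47. Mmp8, Ifitm6, Cd177 and Abca13 were low there too, at -0.72, -0.59, -0.54 and -0.54, but between -0.27 and -0.10 on array 6. Nxpe2 and Mylk3 were at 0.06 and 0.15 on array 6-1, and Apol11b was at -0.09. The lists of 10 shared 1 gene, Nxpe2. Apol8 stood at place 4 in likeness to Apol11b (0.51), and Apol11b at place 44 in likeness to Apol8.

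**Figure D3:**
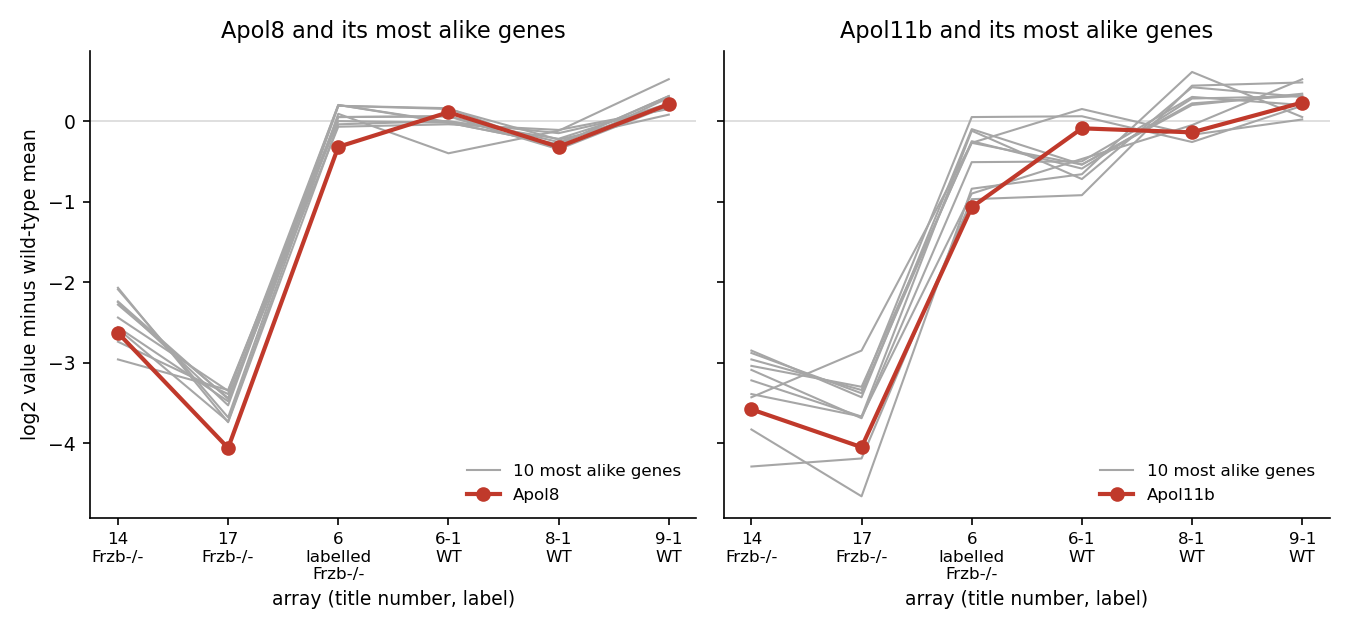
Log2 value minus the wild-type mean on each array for Apol8 (left) and Apol11b (1440927_x_at, right) in red, each with its 10 most alike genes in grey. The genes beside Apol8 return to within 0.20 of the wild-type mean on array 6, and several of those beside Apol11b remain below it on array 6 and on the wild-type array 6-1.

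The tissue contains marrow, and lists of genes of blood cells, of the joint tissues and of the pathways linked to the family were set beside the Apol genes, with each gene taken at its brightest probe set. Over all genes 832 were lower and 418 higher in Frzb-/- mice, with a median difference of 0.04. Genes of red cells, of granulocytes and of dividing cells were lower in Frzb-/- mice. Of the erythroid genes 12 of 14 were lower and 0 higher, among them Slc4a1, the anion exchanger of the red cell membrane (-2.80), and Car2 (-2.58). Of the neutrophil genes 12 of 13 were lower and 0 higher, with S100a8 (-1.47) and S100a9 (-1.67), which encode the subunits of calprotectin, as the brightest and Mmp8 (-3.53) and Cd177 (-3.17) as the most changed. All 7 early granulocyte genes were lower, such as Mpo, the myeloperoxidase of azurophil granules (-2.28), and Elane, neutrophil elastase (-2.68). All 11 proliferation genes were lower, such as Mki67 (-2.11) and Birc5 (-2.39). Of the B cell genes 7 of 12 were lower and 0 higher, such as Rag1 (-2.99), a recombinase of developing lymphocytes. Of the megakaryocyte genes 4 of 8 were lower and 0 higher: Pf4, Ppbp, Gp9 and Gp1bb. Of the T and NK cell genes 2 of 7 were lower and 0 higher, Nkg7 and Il7r. Without array 17, 2 neutrophil, 4 proliferation, 2 megakaryocyte and 0 T and NK cell genes passed. Fewer erythroid, early granulocyte and B cell genes passed there as well. Without the wild-type array 8-1, 5 proliferation, 1 megakaryocyte and 1 T and NK cell genes passed. In that fit 8 neutrophil, 5 early granulocyte and 5 B cell genes passed, and 13 erythroid genes. Without the wild-type array 6-1 or 9-1, 1 megakaryocyte gene passed. In the same fits without array 17 and without array 8-1, 194 and 373 of all genes were lower.

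By array, the median of the erythroid genes was at -2.32 on array 14, at -3.04 on array 17, at 0.16 on array 6 and between -0.24 and 0.20 on the wild-type arrays. The neutrophil genes were at -2.22 and -2.35 on the Frzb-/- arrays, at -0.06 on array 6 and between -0.31 and 0.19 on the wild-type arrays, and the early granulocyte genes at -2.01 and -2.87, at -0.23 and between -0.26 and 0.11. The proliferation genes were at -1.63 and -2.34 in Frzb-/- mice, at 0.20 on array 6 and between -0.12 and 0.20 in wild-type mice, and the megakaryocyte genes at -1.18 and -2.26, at 0.07 and between -0.21 and 0.16. The B cell genes were at -1.24 and -1.90 in Frzb-/- mice, at -0.05 on array 6 and between -0.23 and 0.11 in wild-type mice, and the T and NK cell genes at -0.80 and -1.33, at -0.05 and between -0.23 and 0.23. The median of each of these lists was thus lower on array 17 than on array 14, and array 6 lay within the wild-type range for the neutrophil, early granulocyte, erythroid, megakaryocyte, B cell and T and NK cell lists. Apol11b lay below its wild-type range on array 6. A median does not show single genes, which differed to both sides on array 6. Ms4a1 of the B cell list was at -0.72 from wild type and Car1 of the erythroid list at 0.37. Among the bone genes Sost was at -1.15 and Alpl at 0.73. The part of these cells in the differences of Apol8 and Apol11b was not tested.

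Monocytes and macrophages, dendritic cells and progenitors were also looked at. Of the monocyte and macrophage genes 3 of 11 were lower, Mpeg1 (-1.38), Ccr2 (-1.60) and Lyz2 (-1.19), and 0 higher, while Csf1r, the receptor that marks the lineage, read 12.58 and 12.25 in Frzb-/- mice, 12.36 on array 6 and 12.21, 12.26 and 12.21 in wild-type mice (adjusted p = 0.356). Their median difference was 0.07. Of the dendritic cell genes 0 of 7 passed in limma, where 2 had an unadjusted p under 0.05, with a median of -0.12. Of the progenitor genes 4 of 10 were lower, Kit, Myb, Tal1 and Lmo2, and 1 was higher, Cd34, with a median of -0.34. Without array 17 or without array 8-1, 1 monocyte and macrophage gene passed, and Cd34 did not pass without array 14, 17 or 8-1.

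The labelled tissues were present on all arrays. Of the cartilage genes 0 of 10 passed in limma, where 2 had an unadjusted p under 0.05, with a median difference of -0.02, and Col2a1, the type II collagen of cartilage, read 14.70 and 14.69 in Frzb-/- mice, 14.73 on array 6 and 14.56, 14.75 and 14.70 in wild-type mice. Of the bone genes 1 of 8 was lower, Sost, the WNT inhibitor of osteocytes (-2.57), 0 were higher, and the median was 0.11, and without array 17 Sost did not pass. Of the endothelial genes 1 of 10 was higher, Sox17 (1.48), 0 were lower, and the median was 0.64, and it did not pass without array 14, 17 or 8-1. Of the fibroblast genes 6 of 10 were higher, such as Thy1 (1.94) and Dpt (1.77), 0 were lower, and the median was 1.01. Their count was 2 without array 14, 0 without array 17 and 2 without array 8-1.

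The plasma lipoprotein apolipoproteins, which share the name but belong to other gene families than the Apol genes, were examined next. Of the 8 measured genes, in Frzb-/- mice 0 were lower and 1 was higher, and the median difference was 0.53. Apoc2, a cofactor of lipoprotein lipase, read 5.60 and 5.52 in Frzb-/- mice, 6.18 on array 6, and 6.65, 6.58 and 6.43 in wild-type mice (a fall just short of the limit of 1, limma, adjusted p = 0.00244). It was lower by the rule without the wild-type array 9-1 (-1.06, adjusted p = 0.0048) and with cyclic loess (-1.02, adjusted p = 0.00204). The higher one was Apod, a carrier of small lipids, which read 10.36 and 10.79 in Frzb-/- mice, 8.63 on array 6, and 9.70, 9.17 and 9.02 in wild-type mice (difference 1.28, limma, adjusted p = 0.00903). The count of higher genes was 1 without the wild-type array 6-1 and 0 without array 14, 17, 8-1 or 9-1. Apoe, which carries lipid between tissues, read 11.54 and 11.62 in Frzb-/- mice, 10.59 on array 6, and 10.94, 11.11 and 10.88 in wild-type mice (difference 0.60, adjusted p = 0.0146). Clu differed by 0.77 (limma, adjusted p = 0.0336) and Apoc1 by 1.20 (adjusted p = 0.0371), without passing.

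Interferon-stimulated genes were mixed. Of 18 measured, 2 were lower and 2 higher in Frzb-/- mice, against 6.02% lower and 3.03% higher among all genes. The median difference was 0.15. Rsad2, the antiviral protein viperin, read 10.44 and 9.96 in Frzb-/- mice, 12.73 on array 6, and 12.59, 12.32 and 12.81 in wild-type mice (difference -2.37, limma, adjusted p = 0.00106). Oas3, a sensor of double-stranded RNA, read 5.76 and 5.76 in Frzb-/- mice, 7.45 on array 6, and 7.52, 7.51 and 7.89 in wild-type mice (difference -1.88, adjusted p = 0.00104). The higher ones were Ifit3 (1.38) and Gbp2 (1.20), of which 0 passed without array 17 and 1 without the wild-type array 6-1 or 8-1. The count of lower genes was 2 whichever array was left out.

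**Figure D4:**
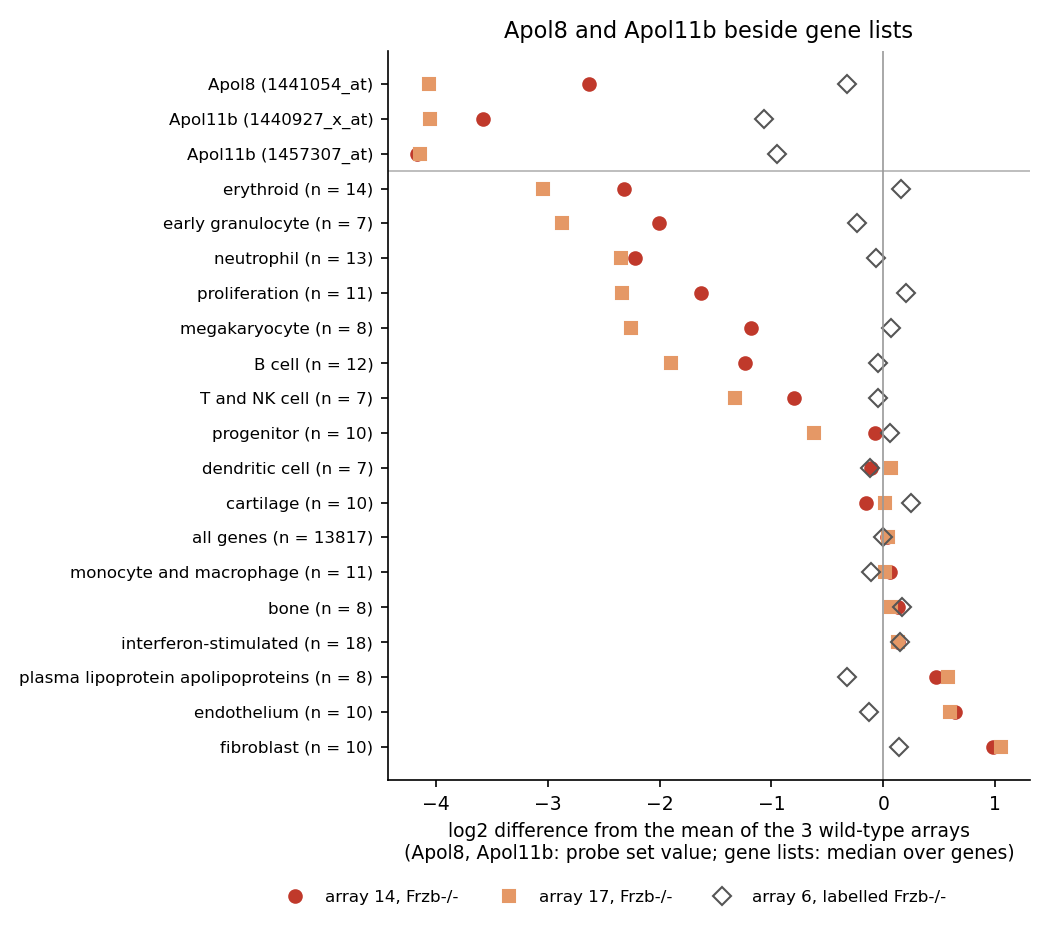
Log2 difference from the mean of the 3 wild-type arrays on the Frzb-/- arrays 14 and 17 and on array 6, for the 3 probe sets of Apol8 and Apol11b (top) and as the median over the genes of each list (n, genes measured). The erythroid, early granulocyte, neutrophil, proliferation, megakaryocyte, B cell and T and NK cell lists lie left of 0 on arrays 14 and 17. Apol8 and Apol11b, which were chosen by their falls, do so too. On array 6 Apol11b lies at -1.07 and -0.95. The medians of these lists lie between -0.23 and 0.20 there, which does not show their single genes.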

How the data were processed

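Articular cartilage with subchondral bone of the tibia from 6 mice had been hybridised to Affymetrix mouse arrays, 1 per mouse: 2 arrays labelled Frzb -/- (titled 14 and 17), 1 labelled Frzb -/- and titled 6, and 3 wild type. The deposited table holds RMA expression values on the log2 scale, which the authors computed after removing control and absent probe sets; the submitters' processing notes name RMA and affy 1.20.0. Medians per array were 7.32 to 7.45. The table carries no detection calls, so whether the low values of Apol8 and Apol11b lie above background is not known. The number of arrays limits the precision, and the labels do not say whether mice were litter mates.

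Probe sets were named through the platform annotation (25090 with 1 gene, which were used, 677 with several and 4851 with none), and each gene was read at its brightest probe set, by the mean of the 6 arrays. Gene order and start sites came from RefSeq (GRCm38.p6), where both genes were found by symbol. All 30618 probe sets entered limma 3.58.1 (R 4.3.3; lmFit, then eBayes) as 3 groups with two-sided, Benjamini-Hochberg adjusted tests. The thresholds followed the published analysis, and the fit was tested on simulated data. Array 6 took its spread from the other groups. Python 3.11.15 with numpy 2.4.6, pandas 2.3.3 and matplotlib 3.10.9 made the tables and plots.

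Apol8, Apol11b and the gene lists were chosen with earlier results of these data known. Named genes were the Apol genes, Frzb, the 10 most alike genes of each and 10 measured neighbours on each side. From each list they came from the 2 brightest in wild type and the 2 most changed. Genes of a count of 5 or fewer, the genes next in rank and Apoc2 were named after their values were seen. Alternatives were all 3 labelled arrays as 1 group, each array left out, 3 other normalizations, a filter on dim probe sets, other moderation of the variance, and the mean of a gene's probe sets.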

Additional observations from a re-analysis of the deposited data

How the results depend on the processing

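The falls of Apol8 and Apol11b kept their sign under every alternative run. The genes had been picked for these falls on the same arrays, so the kept sign was largely set by the choice. With all 3 arrays labelled Frzb -/- taken as 1 group, the difference was -2.34 for Apol8 and -2.90 (1440927_x_at) and -3.08 (1457307_at) for Apol11b. With each array left out in turn it lay between -4.06 and -2.63 for Apol8, the extremes being without array 14 and without array 17, between -4.05 and -3.58 for 1440927_x_at, and between -4.23 and -4.03 for 1457307_at. On array 6, Apol8 and Apol11b kept their sign and failed the adjusted test in all 33 values recomputed under alternatives. The differences lay between -0.48 and -0.21 for Apol8, -1.14 and -0.95 for 1440927_x_at, and -1.02 and -0.83 for 1457307_at. Alternatives that changed only the variance, the probe sets tested or the Frzb-/- arrays could not move these differences. The other Apol genes had 0 calls in every setting. Of 221 list medians under alternatives 193 moved by less than the replicate spread. Of 221 counts of lower genes per list 184 stayed within 1.5 times. These include lists with 0 lower genes in every setting, such as the cartilage and fibroblast lists. Counts of higher genes were left out of this number. That of the fibroblast list went from 6 to 2 without the wild-type array 8-1. Alternatives that changed only the moderation of the variance could not move a median.

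The counts over all probe sets, 1558 lower and 717 higher, became 335 and 97 without array 17, 676 and 298 without the wild-type array 8-1, and 1506 and 355 without array 14. They were 1004 and 415 among probe sets above the median, where fewer were tested. Both were 0 with no moderation of the variance, where limma's fit gave 9835 an unadjusted p under 0.05 and a smallest adjusted p of 0.0522, and 0 with all 3 labelled arrays as 1 group, where limma gave 3534 probe sets an unadjusted p under 0.05. The cause was not tested. The median difference over all probe sets was 0.02 and lay between -0.01 and 0.07 in the alternatives. No paired analysis was possible because arrays 14 and 17 share no number with the wild-type titles, and array 6 shares only the number 6 with the wild-type array 6-1. Arrays have no read depth, and values near the lower end of the scale understate a fall. With 2 Frzb-/- arrays, the spread of Apol8 (SD 1.02) rests on 1 difference.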
